A study of Rattus norvegicus with 399 samples.

Results

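The Abcc conjugate exporters are the 6 genes Abcc1 to Abcc6, taken as every probe of the Rat S1500+ panel that carries one of those symbols. Each gene had 1 probe, so the set is 6 of 2654 probes and 6 of 2603 gene symbols. The panel was read by TempO-Seq, a targeted assay in which a pair of detector oligonucleotides is ligated side by side on a transcript and counted by sequencing. Female Sprague-Dawley rats, 9 weeks old, were exposed to 1,2-dichlorobenzene (1,2-DCB) or 1,4-dichlorobenzene (1,4-DCB), and liver, kidney, heart, lung and ovary were taken on study day 5. Exposed groups received 1, 10, 30, 100, 250 or 500 ppm of 1,2-DCB, or 1, 10, 50, 150, 400 or 800 ppm of 1,4-DCB, and each compound had its own unexposed (0 ppm) control rats. A group held 5 exposed rats or 10 controls per tissue. After the 9 libraries that the submitters marked as not used were set aside, 390 libraries of 80 rats remained, and these groups were smaller: 1,2-DCB kidney controls (n = 9) and lungs at 500 ppm (n = 4), 1,4-DCB kidneys at 1 ppm (n = 4), lung controls (n = 8), lungs at 1, 10 and 150 ppm (n = 4 each) and lungs at 400 ppm (n = 3). The samples are pieces of whole tissue, so fewer cells of a type and less RNA per cell cannot be told apart.

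Library totals ran from 1.2 to 69.8 M counts, with a median of 22.6 M. Marker genes of the main cell type matched the labelled tissue in the controls: the summed level of 17 hepatocyte markers was at least 603303 CPM (counts per library, brought to a common total) in every control liver of 1,2-DCB, against medians of 1817 CPM in heart and 3846 CPM in kidney. The lung list holds only Krt8, Krt18 and Cdh1, which other epithelia share, so the lungs were checked by these alone (medians of 186 CPM in lung, 63.1 CPM in kidney and 40.6 CPM in liver). Hearts of rats F101 and F102 in the 1 ppm group of 1,2-DCB stood apart from the other hearts, and each result that rests on them is given with and without them. Reads of Abcc1, Abcc3 and Abcc5 were found in all 390 libraries, of Abcc4 in 381 and of Abcc2 in 269, while 185 libraries had no read of Abcc6. Abcc2 and Abcc6 fell below the filter on low counts in both sets of hearts, in both sets of ovaries and in the lungs of 1,2-DCB. Of 360 comparisons of a member with controls, 300 were therefore tested and 60 were not. In the untested sets no library had more than 18 counts of either gene.

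The ABCC proteins are ATP-driven pumps that move organic anions out of cells, many of them conjugates of glutathione, glucuronic acid or sulfate made in phase II metabolism. In hepatocytes Abcc2 sits on the canalicular membrane and exports conjugates, bilirubin glucuronides among them, into bile. Abcc3 and Abcc4 sit on the basolateral membrane and send conjugates and bile acids back to the blood, and both are known to be raised in rodent liver by xenobiotics or by cholestasis. Abcc1 is a widely expressed basolateral exporter of glutathione conjugates, Abcc5 exports cyclic nucleotides and other organic anions, and Abcc6 is a liver and kidney protein whose loss in humans and mice leads to ectopic mineralization.

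The promoters of the 3 members that were higher at 500 ppm of 1,2-DCB in liver and that could be matched to the sequence table follow, since these genes changed in the same direction in that group. They are RefSeq sequences of the rat build GRCr8, from 250 bases before to 50 bases after the annotated start, printed 5′ to 3′ in the direction of the gene. Promoters of 4 of 6 members were matched (Abcc1, Abcc2, Abcc4 and Abcc6), while Abcc3 and Abcc5 are named only. Capitals mark matches on either strand to 3 motifs: TGACNNNGC, the core of the antioxidant response element bound by NRF2, AGGTCA, an element bound by nuclear receptors, and GGGCGG, the GC box.
Abcc1 (chr10:1162318-1162617, minus strand): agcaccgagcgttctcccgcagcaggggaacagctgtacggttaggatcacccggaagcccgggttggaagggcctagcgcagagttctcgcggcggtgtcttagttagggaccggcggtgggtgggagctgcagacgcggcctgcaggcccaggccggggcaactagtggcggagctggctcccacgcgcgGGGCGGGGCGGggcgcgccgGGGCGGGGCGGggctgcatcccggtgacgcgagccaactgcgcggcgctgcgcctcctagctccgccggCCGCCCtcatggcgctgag
Abcc2 (chr1:252613625-252613924, plus strand): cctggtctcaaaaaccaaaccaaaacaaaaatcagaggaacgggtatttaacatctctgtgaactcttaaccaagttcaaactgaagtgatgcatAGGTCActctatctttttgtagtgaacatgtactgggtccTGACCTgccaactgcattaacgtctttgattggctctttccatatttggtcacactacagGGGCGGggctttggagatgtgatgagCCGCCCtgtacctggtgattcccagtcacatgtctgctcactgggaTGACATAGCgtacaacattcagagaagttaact
Abcc4 (chr15:102181315-102181614, minus strand): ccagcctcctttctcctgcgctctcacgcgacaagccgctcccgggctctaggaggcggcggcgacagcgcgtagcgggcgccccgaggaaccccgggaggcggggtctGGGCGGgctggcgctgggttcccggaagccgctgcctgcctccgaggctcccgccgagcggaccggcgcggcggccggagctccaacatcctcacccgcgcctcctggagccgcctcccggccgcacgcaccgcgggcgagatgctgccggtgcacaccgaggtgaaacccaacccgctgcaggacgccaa
The core TGACNNNGC was found in Abcc2 alone of the 4, as TGACATAGC at bases 268 to 276 of the window, and 12.1% of 33469 promoters of this length hold it. AGGTCA was likewise found in Abcc2 alone, once on each strand, and is held by 16.2% of promoters. GGGCGG was found 5 times in Abcc1, where neighbouring matches of a pair share 1 base, 2 times in Abcc2, 1 time in Abcc4 and 2 times in Abcc6, and is held by 33.1% of promoters. No base lay under 2 different motifs. These matches describe the letters of the window and not sites of binding.

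Without exposure the members differed in the tissue where they were highest. Levels here are CPM after trimmed mean of M values (TMM) scaling of all 5 tissues together, over 20 control livers, hearts and ovaries, 19 kidneys and 18 lungs, and they compare tissues for 1 gene and not genes with each other. Abcc2 averaged 56.6 ± 13.6 CPM in liver (SD), 2.11 ± 0.74 CPM in kidney and under 0.14 CPM in heart, lung and ovary. Abcc6 averaged 4.83 ± 1.68 CPM in liver and 0.418 ± 0.30 CPM in kidney, and it had no count in any of 20 control hearts, where 3 counts over the group would be 0.0125 CPM. The other 4 members were lowest in liver or, for Abcc3, in lung. Abcc1 averaged 37 ± 3.5 CPM in lung, 35.7 ± 3.2 CPM in heart, 34.5 ± 3.6 CPM in ovary, 29.3 ± 4.4 CPM in kidney and 6.06 ± 1.3 CPM in liver. Abcc4 averaged 11.8 ± 2.8 CPM in ovary, 6.40 ± 2.40 CPM in kidney, 1.53 ± 0.56 CPM in heart, 1.51 ± 0.52 CPM in lung and 0.537 ± 0.38 CPM in liver. Abcc5 ran in the order lung, heart, ovary, kidney and liver, between 45 ± 9.6 and 14.3 ± 4.5 CPM. Abcc3 ran in the order ovary, kidney, heart, liver and lung, between 20.5 ± 3.1 and 9.57 ± 1.36 CPM.

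The tests between control tissues called 51 of 60 differences of a member between 2 tissues at an adjusted p of 0.05 (edgeR quasi-likelihood test, Benjamini-Hochberg adjustment), beside 78.5% (lung against ovary) to 85.7% (liver against ovary) of all probes over the 10 pairs. The 9 that were not called were heart against lung for Abcc1, Abcc2, Abcc4, Abcc5 and Abcc6, heart against kidney for Abcc3, heart against ovary for Abcc1, and lung against ovary for Abcc1 and Abcc6. The order of the tissues depends on the scaling. The 10 most abundant probes carried 75% of the counts in control livers, 69.3% in hearts, 66.7% in lungs, 61.4% in kidneys and 59.2% in ovaries; the part of this in the order was not tested. With library totals in place of TMM factors, Abcc3 was lowest in liver (2.31 CPM, against 17.9 CPM in lung), and its liver minus lung difference was -2.96 on the log2 scale, against 0.56 with TMM factors. The heart minus ovary difference of Abcc5 likewise turned, at -0.64 with library totals, against 0.35 with TMM factors. With library totals Abcc1 was highest in ovary (81.5 CPM, against 68.8 CPM in lung). That scaling lost the calls of Abcc6 between kidney and liver (adjusted p = 0.121), Abcc3 between heart and lung (adjusted p = 0.273) and Abcc5 between lung and ovary (adjusted p = 0.463), and it called 54 of 60 in all. Abcc2 had its highest level in liver under both.

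**Figure D1:**
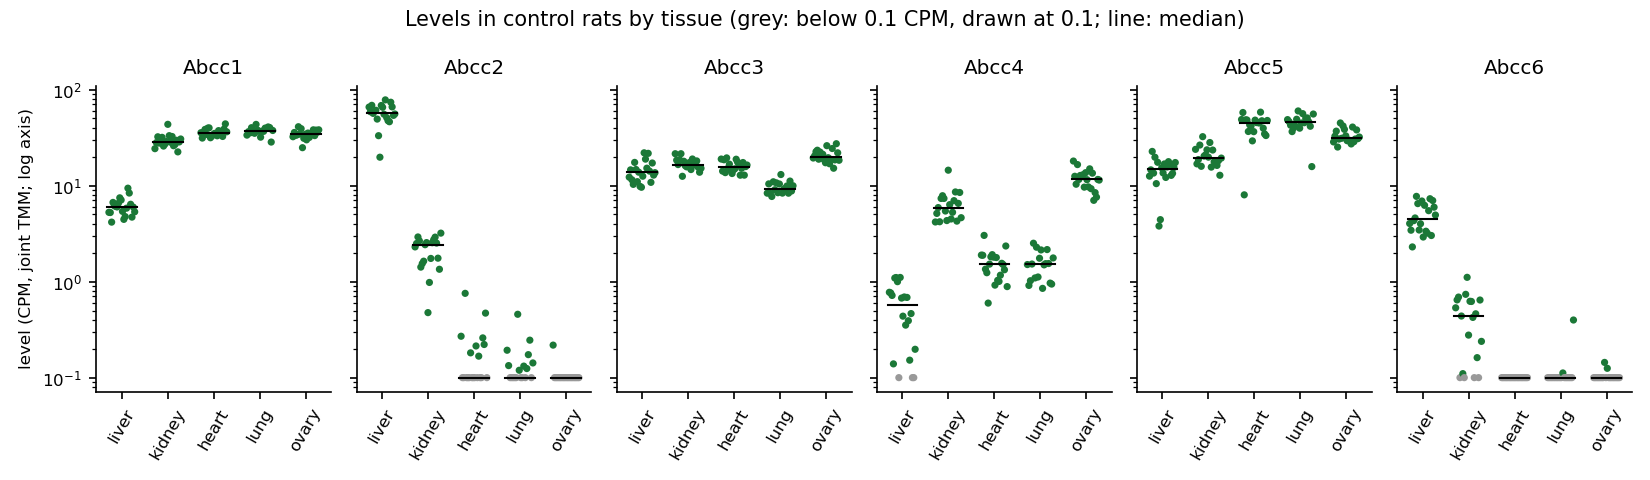
CPM of each member in control libraries of the 5 tissues, on a log axis, with a panel per gene, a point per library and a line at the median (joint TMM scaling); libraries below 0.1 CPM are grey and drawn at 0.1. Abcc2 and Abcc6 are highest in liver, while Abcc1, Abcc4 and Abcc5 are lowest there.

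In liver, Abcc3 was higher with both compounds. Levels from here on are CPM scaled within the fit of a tissue and a compound, and changes are log2 changes against the compound's own controls with their SE. All concentrations of a compound share those controls, so their changes are not independent of each other. At 500 ppm of 1,2-DCB the 5 livers had 14.97, 15.3, 16.3, 16.4 and 17.4 CPM of Abcc3, against a lowest of 1.64, a median of 2.02 and a highest of 3.03 CPM in the 10 controls. All 5 lay far above the highest control, the means were 16.1 ± 0.944 and 2.14 ± 0.449 CPM (SD), and the change was 2.90 ± 0.17 (7.48-fold, adjusted p = 1.97e-17). At this concentration 67.8% of 2019 probes were called, and Abcc3 ranked 26 by p. At 250 ppm the livers had 8.91, 9.05, 11.3, 11.7 and 11.8 CPM, again with no overlap with controls, a change of 2.30 ± 0.18 (adjusted p = 3.45e-13) where 24.8% of probes were called.

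Abcc3 was also called at lower concentrations of 1,2-DCB, where few probes were. At 100 ppm the livers had 4.22, 4.32, 4.43, 4.49 and 6.78 CPM, all above the highest control of 3.03 CPM, and the change of 1.18 ± 0.18 (adjusted p = 0.000198) had the smallest p of any probe, among 2.13% called. At 10 ppm the livers had 2.43, 4.35, 4.90, 5.32 and 5.98 CPM, so that 4 of 5 were above the highest control and 1 lay within the range of controls. The change there was 1.09 ± 0.18 (adjusted p = 0.00104), and Abcc3 was the 1 probe of 2019 called (0.0495%). The series was not in order of concentration: at 30 ppm, between these groups, the livers had 1.63, 2.19, 3.70, 3.77 and 4.87 CPM, a change of 0.60 ± 0.19 (adjusted p = 0.571), and at 1 ppm they had 2.01 to 3.93 CPM, a change of 0.51 ± 0.19 (adjusted p = 0.9997). No probe was called at 1 or 30 ppm.

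With 1,4-DCB the calls of Abcc3 in liver began at 400 ppm. At 800 ppm the 5 livers had 12.5, 13.5, 18.3, 19.4 and 21.6 CPM, against a lowest of 1.87, a median of 2.47 and a highest of 3.61 CPM in the 10 controls. The groups did not overlap, the means were 17.1 ± 3.94 and 2.69 ± 0.627 CPM (SD), and the change was 2.66 ± 0.22 (6.30-fold, adjusted p = 8.49e-12), with 34.9% of probes called. At 400 ppm the livers had 6.40, 7.90, 10.8, 13.4 and 13.8 CPM, all above the controls, a change of 1.95 ± 0.22 (adjusted p = 1.03e-07), with 6.44% of probes called. At 150 ppm they had 3.47, 3.98, 4.61, 4.65 and 4.76 CPM, of which 4 of 5 were above the highest control. The change of 0.66 at 150 ppm was not called (adjusted p = 0.79, unadjusted p = 0.0072), nor were 0.30 at 50 ppm, 0.05 at 10 ppm and 0.52 at 1 ppm, where rat F104 had 8.08 CPM and the other 4 rats 1.93 to 3.94 CPM. No probe was called at 150 ppm or below.

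**Figure D2:**
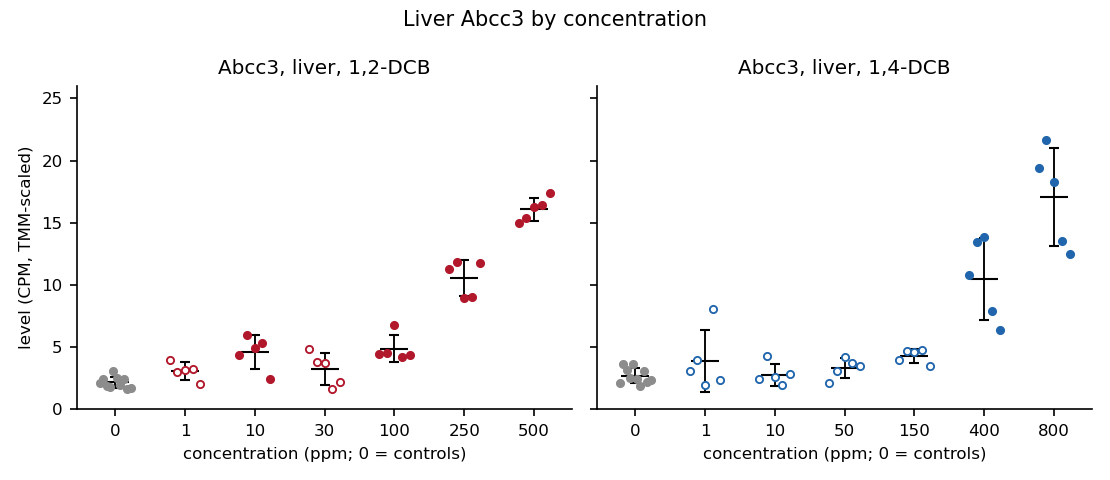
CPM of Abcc3 in each liver at each concentration (ppm, in order and not to scale) of 1,2-DCB and 1,4-DCB, with the mean and SD as bars. Controls are grey, groups that passed the test are filled and the others open; the 10 and 100 ppm groups of 1,2-DCB are filled and the 30 ppm group between them is open.

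The other basolateral exporter of this pair, Abcc4, was near the detection limit in control livers and higher at both top concentrations. The livers at 500 ppm of 1,2-DCB had 0.455, 0.821, 0.896, 0.910 and 1.56 CPM (24 to 82 counts), against 0 to 0.190 CPM (0 to 9 counts) in controls. The groups did not overlap and the change was 2.84 ± 0.39 (adjusted p = 5.32e-08). The livers at 800 ppm of 1,4-DCB had 0.225, 0.284, 0.330, 0.409 and 0.558 CPM (11 to 27 counts), against 0 to 0.114 CPM (0 to 7 counts) in controls, again with no overlap, and the change was 2.52 ± 0.56 (adjusted p = 0.000429). At the next lower concentrations Abcc4 was not called (0.50 ± 0.46 at 250 ppm and 0.70 ± 0.65 at 400 ppm).

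Abcc1, the general exporter of glutathione conjugates, was higher in liver at 500 ppm of 1,2-DCB. The livers had 1.26, 2.18, 2.33, 2.43 and 2.47 CPM, against a lowest of 0.687, a median of 1.07 and a highest of 1.25 CPM in controls. All 5 were above the controls, rat F605 only just, and the change was 1.04 ± 0.17 (adjusted p = 1.75e-06). Abcc1 at 800 ppm of 1,4-DCB averaged 0.887 ± 0.252 CPM, against 1.03 ± 0.272 CPM in controls, and was not called (adjusted p = 0.485).

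Abcc2, the canalicular exporter, changed less. Livers exposed to 500 ppm of 1,2-DCB had 10.4, 10.5, 13.3, 13.8 and 21.6 CPM, against a lowest of 3.29, a median of 10.1 and a highest of 12.1 CPM in controls. The groups overlapped, 3 of 5 livers were above the highest control, and the change was 0.59 ± 0.19 (adjusted p = 0.00561). Without rat F604, the highest, it was 0.39 and no longer called (adjusted p = 0.0687; 6.93e-05 to 0.0287 under the other settings tried). Abcc2 at 800 ppm of 1,4-DCB averaged 10.8 ± 1.32 CPM, against 10.1 ± 1.94 CPM in controls (adjusted p = 0.591).

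Abcc5, the exporter of cyclic nucleotides, was higher with 1,2-DCB and lower with 1,4-DCB at the top concentrations. Exposed to 500 ppm of 1,2-DCB, the livers had 3.31, 3.78, 5.05, 5.65 and 6.08 CPM, against a lowest of 0.664, a median of 2.38 and a highest of 3.74 CPM in controls. Of these 4 of 5 were above the highest control, and the change was 1.05 ± 0.24 (adjusted p = 0.000244). Control rats F7 and F8 held the lowest values of both Abcc5 (0.664 and 0.737 CPM) and Abcc2 (5.80 and 3.29 CPM). At 250 ppm the change was 0.70 ± 0.25 (adjusted p = 0.0327), a call lost without rat F502 (0.58, adjusted p = 0.133), without F505 (adjusted p = 0.0544), without control F5 (adjusted p = 0.0513) or with the exposed group and its controls alone (adjusted p = 0.113). At 800 ppm of 1,4-DCB the livers had 1.2, 1.22, 1.99, 2.18 and 2.32 CPM, against a lowest of 2.02, a median of 2.63 and a highest of 2.96 CPM in controls, with 3 of 5 below the lowest control. That change was -0.52 ± 0.20 (adjusted p = 0.0429), and it was lost in 9 fits that left out a rat each (controls F3, F4, F5, F8, F9 and F10, exposed F601, F602 and F604; -0.41 without F601, adjusted p = 0.15).

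Abcc6, the liver and kidney member, was lower in liver at 500 ppm of 1,2-DCB. The livers had 0.247, 0.338, 0.386, 0.392 and 0.399 CPM, against a lowest of 0.379, a median of 0.712 and a highest of 1.32 CPM in controls. Of these 2 of 5 were below the lowest control and the other 3 lay at the foot of the control range, a change of -1.20 ± 0.31 (adjusted p = 0.000868). Abcc6 at 800 ppm of 1,4-DCB averaged 0.713 ± 0.22 CPM, against 0.841 ± 0.30 CPM in controls (-0.24, adjusted p = 0.469).

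In liver all 6 members thus passed the test at 500 ppm of 1,2-DCB, 5 higher and 1 lower, where 67.8% of all probes did; 3 of 6 did not overlap with controls, against 36.4% of all probes. With 800 ppm of 1,4-DCB 3 of 6 passed, beside 34.9%, and 2 of 6 did not overlap, against 13%. The median change of the 6 members at 500 ppm was 1.04, and the median of all probes was 0.03. At 800 ppm of 1,4-DCB these medians were -0.06 and -0.001. Of the 40 comparisons of the 5 members other than Abcc3 up to 100 ppm of 1,2-DCB or 150 ppm of 1,4-DCB in liver, 0 were called, 2 had an unadjusted p below 0.05, and the smallest adjusted p was 0.464.

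**Figure D3:**
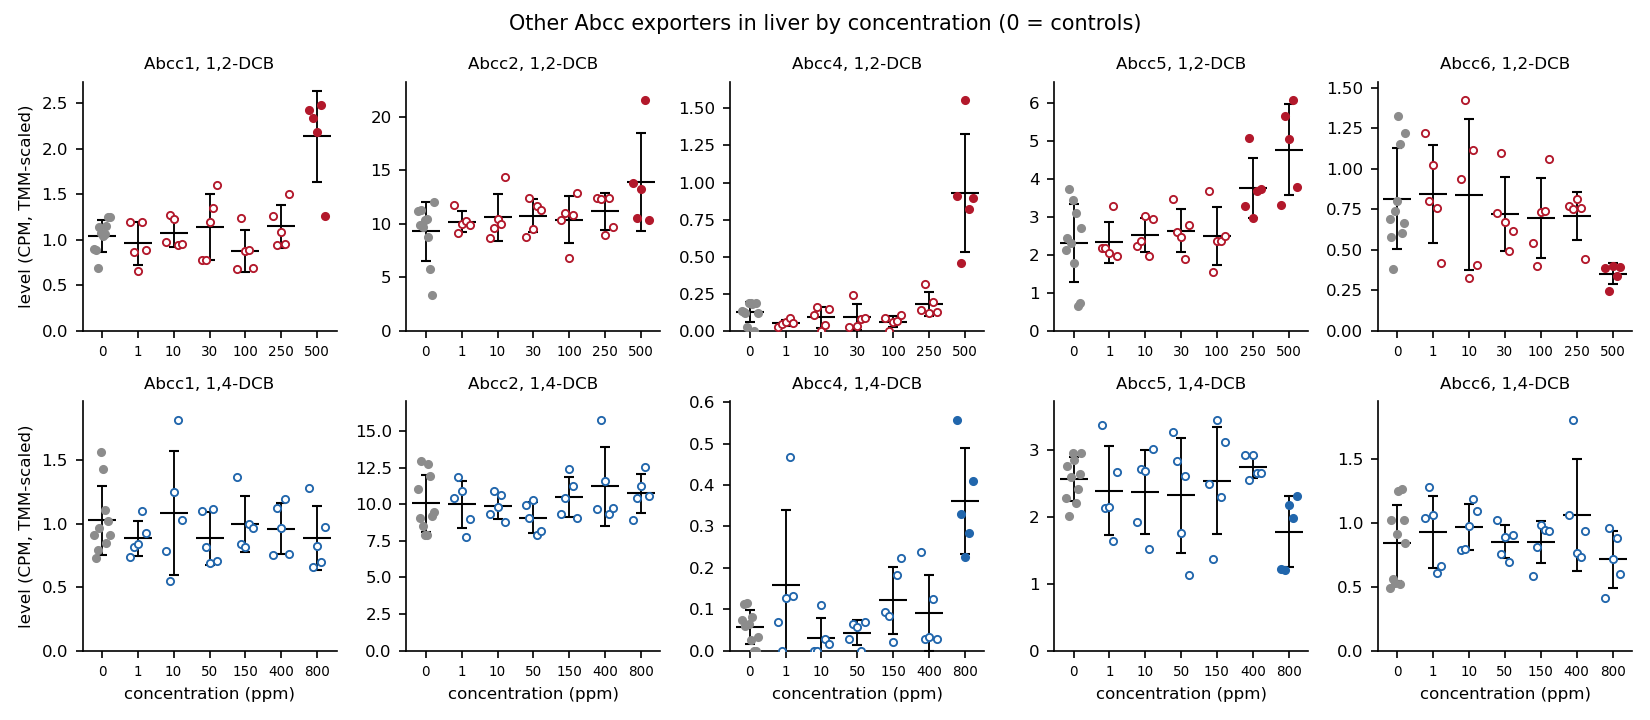
CPM of Abcc1, Abcc2, Abcc4, Abcc5 and Abcc6 in each liver at each concentration (ppm, in order and not to scale) of both compounds, with the mean and SD as bars; controls are grey, groups that passed the test filled, the others open. At 500 ppm of 1,2-DCB Abcc4 and Abcc1 lie above all controls, and Abcc6 lies at or below the foot of their range.

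The scaling moved the size of these changes and no sign. With library totals in place of TMM factors the median of all probes at 500 ppm of 1,2-DCB was 0.44, and the members stood at 3.31 (Abcc3), 3.25 (Abcc4), 1.45 (Abcc5), 1.44 (Abcc1), 0.99 (Abcc2) and -0.81 (Abcc6), all still called. At 800 ppm of 1,4-DCB that median was 0.09, and Abcc5 was then not called (-0.42, adjusted p = 0.14). Markers of other cell types moved in the same livers. With 500 ppm of 1,2-DCB the summed level of 6 macrophage markers was 30.0 to 43.6 CPM, against 59.7 to 86.3 CPM in controls, with 3 of 6 genes below all controls. The sum of 5 endothelial markers was 18.9 to 25.7 CPM, against 28.3 to 37.5 CPM, with 2 of 5 genes below all controls. The sum of 17 hepatocyte markers was 521417 to 666566 CPM, against 603303 to 867257 CPM, with 10 of 17 genes below and 1 above all controls. The sum of 4 cholangiocyte markers overlapped at 0.965 to 2.15 CPM, against 0.604 to 3.33 CPM, with Cldn4 at 0 in 7 of 10 controls. Krt8, Krt18 and Cdh1, epithelial genes, summed to 93.5 to 157 CPM, against 37.4 to 57.5 CPM. At 800 ppm of 1,4-DCB the endothelial sum was 22 to 25.7 CPM, against 29.8 to 38.7 CPM, with 1 of 5 genes below all controls. The macrophage sum there overlapped at 53.4 to 69 CPM, against 59.4 to 82.8 CPM. The part of these shifts in the members' changes was not tested.

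Outside the liver 5 comparisons of a member passed the test, and the largest of those at a top concentration was Abcc4 in kidney. Kidneys exposed to 500 ppm of 1,2-DCB had 14.6, 18.1, 18.99, 25.1 and 25.7 CPM of Abcc4, against a lowest of 5.39, a median of 6.86 and a highest of 10.1 CPM in 9 controls. The groups did not overlap (5.59% of probes did not), the means were 20.5 ± 4.77 and 7.36 ± 1.86 CPM (SD), and the change was 1.48 ± 0.18 (2.79-fold, adjusted p = 1.19e-07). Among 16.4% of probes called, Abcc4 ranked 19 by p, and it was the 1 member of 6 called. At 250 ppm the kidneys had 7.55 to 10.5 CPM and were not called (0.0846% of probes called). In the same kidneys the sum of 5 proximal tubule markers was 5677 to 13590 CPM, against 11218 to 28015 CPM in controls, that of endothelial markers 261 to 308 CPM, against 342 to 527 CPM, and that of fibroblast and smooth muscle markers 410 to 628 CPM, against 758 to 1342 CPM. Gene by gene, 1 of 5 endothelial, 1 of 8 fibroblast and smooth muscle and 0 of 5 proximal tubule genes lay below all controls. The part of these shifts in the change of Abcc4 was not tested.

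In ovary Abcc4 was lower at 800 ppm of 1,4-DCB. The ovaries had 8.17, 9.76, 11.97, 16.5 and 31.2 CPM, against a lowest of 16.7, a median of 25.2 and a highest of 35.5 CPM in controls. Rat F601 had 31.2 CPM and lay among the controls, the other 4 lay below them, and the change was -0.70 ± 0.23 (adjusted p = 0.0468, 8.47% of probes called). The call lay close to the threshold. It was lost in 24 of the fits that left out a rat, with changes there between -0.72 and -0.54 and adjusted p up to 0.19. Some of these left out a rat of another concentration, which moved the change little (-0.70 without F401 at 150 ppm, adjusted p = 0.0502). The call was also lost with no filter on low counts (adjusted p = 0.0504) and with the exposed group and its controls alone (adjusted p = 0.14). With 1,2-DCB at 500 ppm the ovaries had 10.7, 20.01, 22.7, 24.1 and 27.2 CPM, against a lowest of 21.9, a median of 29.1 and a highest of 40.9 CPM in controls, a change of -0.51 that was not called (adjusted p = 0.23).

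The calls in lung and heart at 500 ppm of 1,2-DCB were small. Abcc3 had 20.9, 20.96, 24.5 and 27.6 CPM in 4 lungs, against a lowest of 14.1, a median of 17.4 and a highest of 23.7 CPM in 10 controls, and 2 of 4 were above the highest control. The change was 0.41 ± 0.11 (adjusted p = 0.0168, 8.85% of probes called), and it was lost without rat F602 (adjusted p = 0.0602) or F605 (0.32, adjusted p = 0.142), with library totals (adjusted p = 0.161) and with the exposed group and its controls alone (adjusted p = 0.0721). Abcc1 had 49.7, 50.82, 50.97, 52.6 and 66.6 CPM in 5 hearts, against a lowest of 39.5, a median of 44.3 and a highest of 50.79 CPM in controls. The groups overlapped, with 4 of 5 exposed hearts above the highest control. The change was 0.27 ± 0.08 (adjusted p = 0.0268, 12% of probes called), and without rat F604 it was 0.19 (adjusted p = 0.189). That call was also lost with library totals (adjusted p = 0.252) and with the exposed group and its controls alone (adjusted p = 0.051). In the hearts at 500 ppm the sum of 8 fibroblast and smooth muscle markers was 859 to 1172 CPM, against 2204 to 3520 CPM in controls, and that of 4 cholangiocyte markers 32.4 to 43.7 CPM, against 9.58 to 23.3 CPM. The fibroblast and smooth muscle sum in the lungs was 1651 to 2244 CPM, against 2556 to 4684 CPM. The part of these shifts in both changes was not tested.

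No member was called in 1,2-DCB ovaries at 500 ppm, beside 2.91% of all probes, or in the hearts (6.86%), kidneys (5.03%) and lungs (5.91%) at 800 ppm of 1,4-DCB. An unadjusted p below 0.05 was found for 1 member in those ovaries, 1 in those hearts and 0 in those kidneys and lungs, and DESeq2 and limma voom also called 0 in each. Below the top concentrations, 189 tested comparisons outside the liver were not called, where from 0% to 0.381% of all probes were, leaving the hearts at 1 ppm of 1,2-DCB aside (0.0434% in lungs at 30 ppm and 0.0435% in ovaries at 250 ppm of 1,2-DCB). Their log2 changes lay between -1.66 and 0.90, 9 had an unadjusted p below 0.05, and the smallest adjusted p was 0.131.

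**Figure D4:**
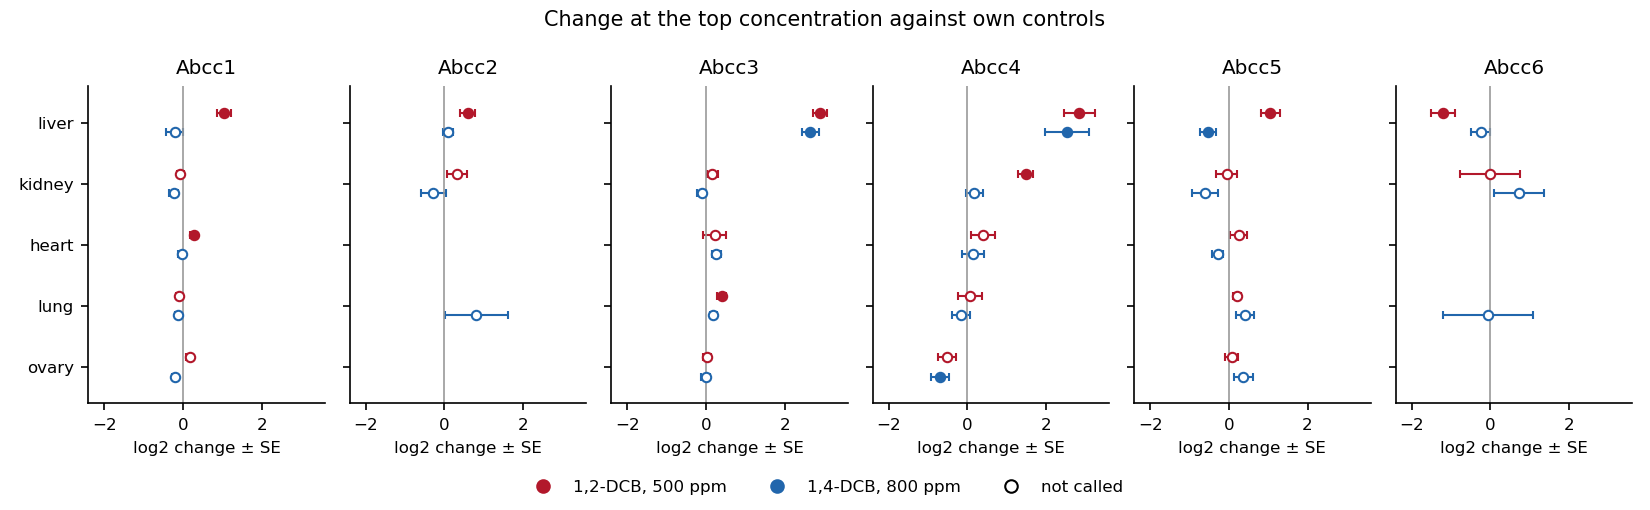
Log2 change of each tested member against controls in each tissue at 500 ppm of 1,2-DCB and 800 ppm of 1,4-DCB, with SE as bars; filled points passed the test. The changes above 2 are of Abcc3 and Abcc4 in liver, and Abcc4 in the kidneys of 1,2-DCB stands at 1.48.

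The 1 call below the top concentrations outside the liver was a matter of single hearts. At 1 ppm of 1,2-DCB Abcc3 had 76.8 CPM in the heart of rat F101 and 158.9 CPM in that of F102, but 21.9, 20.8 and 19.1 CPM in F103, F104 and F105, against a lowest of 17.2, a median of 19.03 and a highest of 24.7 CPM in controls. With all 5 hearts the change was 1.56 ± 0.27 (adjusted p = 0.000903) and 5.64% of 2092 probes were called. Without F101 and F102 it was 0.03 (adjusted p = 0.998) and 0 probes were called. In a fit of this group and its controls alone, all 5 hearts included, the adjusted p was 0.186.

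In the livers of the same rats Abcc3 had 3.93 CPM (F101) and 3 CPM (F102). Abcc1 had 45.9 CPM in the heart of F101 and 39.4 CPM in that of F102, against 37.9 to 41.3 CPM in F103 to F105. Abcc5 had 42.8 and 37.1 CPM, within the 25.9 to 45.2 CPM of those hearts. Abcc4 had 0.605 and 3.46 CPM (16 and 71 counts), below and above their 1.12 to 2.63 CPM. The sum of 8 cardiomyocyte markers was 180258 CPM in F101 and 69762 CPM in F102, against 271178 to 428835 CPM in controls. The sum of fibroblast and smooth muscle markers was 7741 and 3883 CPM in F101 and F102, against 2204 to 3520 CPM in controls. Adipocyte and mesothelial markers summed to 198.6 and 64.2 CPM, against 27.1 to 40.5 CPM, and hepatocyte markers to 3035 and 3159 CPM, against 1683 to 1940 CPM. Cholangiocyte markers summed to 127.2 CPM in F101 and 10.3 CPM in F102, against 9.58 to 23.3 CPM in controls. The part of these cell types in the Abcc3 values was not tested.

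**Figure D5:**
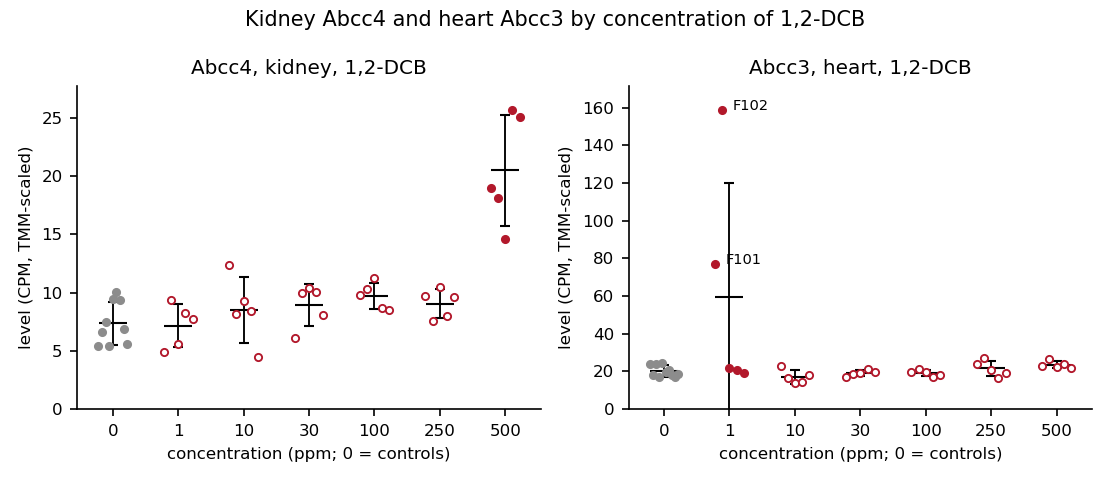
CPM of Abcc4 in kidney and of Abcc3 in heart for each rat of 1,2-DCB by concentration (ppm, in order and not to scale), with the mean and SD as bars. The kidneys at 500 ppm lie at 14.6 CPM or above, over all 9 controls, and the high hearts at 1 ppm are those of rats F101 and F102.

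Whether a change in liver differed from that in another tissue was tested in a joint fit of all tissues, in which the rats of a group gave all tissues. Tests were counted for members that passed the filter on low counts in the other tissue's own fit, and of 38 at the top concentrations 24 were called. Of the 10 left aside, Abcc6 in liver minus lung at 500 ppm of 1,2-DCB had an adjusted p of 0.0193 (-4.09 ± 1.48), on few counts in lung. Abcc3 changed more in liver than in each of the other 4 tissues with both compounds, by 2.31 to 2.73 at 500 ppm of 1,2-DCB and by 2.26 to 2.64 at 800 ppm of 1,4-DCB. Abcc4 did so as well, by 1.24 (kidney) to 3.21 (ovary) with 1,2-DCB and by 2.25 (kidney) to 3.11 (ovary) with 1,4-DCB. Abcc1 changed more in liver than in each other tissue with 1,2-DCB alone, by 0.58 (heart) to 0.97 (kidney). Abcc5 changed more in liver than in kidney (0.97) and ovary (0.83) with 1,2-DCB, and its liver change was below that in lung (-1.08) and ovary (-1.02) with 1,4-DCB. With library totals those differences of Abcc5 with 1,4-DCB were not called (-0.67, adjusted p = 0.215, and -0.80, adjusted p = 0.113). Among the 1,4-DCB lungs, control F7 was low in Abcc5 (29.2 CPM) and F605 at 800 ppm was high (178.8 CPM, next 109.2). The difference from lung without these 2 rats was not tested. The share of all probes called was 38.7% (heart), 40.1% (kidney), 38.9% (lung) and 41.4% (ovary) with 1,2-DCB, and 14.8%, 11.6%, 15.3% and 21.1% for the same tissues with 1,4-DCB.

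The compounds are positional isomers that differ in where the ring carries its second chlorine, and they shared only 1 and 10 ppm. At these the change by 1,2-DCB was tested against the change by 1,4-DCB in 48 comparisons of a member, and 1 was called, with 6 at an unadjusted p below 0.05. The call was Abcc3 in heart at 1 ppm, a difference of 1.59 (95% interval 0.97 to 2.22, adjusted p = 0.00622, 1.03% of probes called), which was 0.06 without the hearts of F101 and F102 (adjusted p = 0.9999). In liver at 10 ppm Abcc3 changed by 1.04 more with 1,2-DCB than with 1,4-DCB (95% interval 0.42 to 1.66), a difference with an unadjusted p of 0.0013 that did not pass over all probes (adjusted p = 0.9985; no probe was called). At 1 ppm the difference in liver was -0.01 (95% interval -0.64 to 0.63). At higher concentrations, which differ, Abcc3 in liver stood at 2.30 for 250 ppm and 2.90 for 500 ppm of 1,2-DCB, and at 1.95 for 400 ppm and 2.66 for 800 ppm of 1,4-DCB. In Abcc3 the control livers of 1,2-DCB minus those of 1,4-DCB stood at -0.35 ± 0.18 (SE), a difference that was not called (adjusted p = 0.45 over all probes).

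Genes that make the conjugates these pumps carry, and targets of NRF2 and of xenobiotic receptors, were counted from lists of known genes, to be read against the share of all probes called. Whether these regulators act on the members was not tested. In livers exposed to 500 ppm of 1,2-DCB, where 67.8% of all probes were called, 22 of 24 tested NRF2 targets were higher and 1 lower (median 2.31), among them the carbonyl reductase Cbr1 (86.9 CPM, against 9.01 CPM in controls) and the aldehyde reductase Akr7a3 (169 CPM, against 4.30 CPM). Of 16 tested targets of the xenobiotic receptors CAR and PXR, 12 were higher and 2 lower (median 1.32), with the epoxide hydrolase Ephx1 at 506 CPM, against 52.1 CPM. Of 21 conjugating enzymes, 11 were higher and 4 lower (median 0.73), with Ugdh, which makes UDP-glucuronate, at 184 CPM, against 49.05 CPM, and the glutathione transferase Gsta2 at 414 CPM, against 86.1 CPM. Of 12 other hepatobiliary transporters, 3 were higher and 6 lower (median -0.78). The multidrug exporter Abcb1b had 9.21 CPM, against 0.191 CPM, while the bile salt export pump Abcb11 had 24.5 CPM, against 61.4 CPM, and the organic anion uptake carrier Slco1a1 had 39.4 CPM, against 93.3 CPM. Of 16 regulators of these genes, 3 were higher and 6 lower, with the bile acid receptor Nr1h4 at 8.71 CPM, against 15.5 CPM. The conjugating enzymes (15 of 21 called), transporters (9 of 12) and regulators (9 of 16) were thus called at shares near that of all probes or below it. The lists were chosen with earlier results of these data known, so their counts describe these livers and are not an independent test. They also share genes, so the counts are not independent of each other. Ephx1 and Gsta2 are on both the NRF2 and the CAR and PXR lists, and Gsta2 is also among the conjugating enzymes. Ugdh is on the NRF2 and conjugating lists, and Abcb1b is on the CAR and PXR and the transporter lists.

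In livers exposed to 800 ppm of 1,4-DCB, where 34.9% of all probes were called, 22 of 24 NRF2 targets were higher and 1 lower (median 0.97), 15 of 18 CAR and PXR targets were higher and 0 lower (median 1.76), and 15 of 20 conjugating enzymes were higher and 1 lower (median 0.70). The CAR target Cyp2b1 had 643 CPM, against 1.36 CPM in controls, and the glucuronosyltransferase Ugt2b1 281 CPM, against 48.2 CPM. Of 13 other hepatobiliary transporters 2 were higher and 2 lower, with the sterol exporter subunit Abcg5 at 0.736 CPM, against 3.43 CPM. The medians of all probes were 0.03 at 500 ppm and -0.001 at 800 ppm. Whether the probes for Cyp2b1, Gsta2 and Ugt2b1 can tell close paralogs apart was not given in the sources used here. At 10 ppm of 1,2-DCB, where Abcc3 alone was called, these lists held 0 calls and the CAR and PXR targets had a median of 0.41; at 100 ppm, with 2.13% of all probes called, 3 NRF2 targets, 4 CAR and PXR targets and 3 conjugating enzymes were higher. In the kidneys at 500 ppm of 1,2-DCB, where Abcc4 was higher and 16.4% of all probes were called, 14 of 25 NRF2 targets were higher and 1 lower, and 5 of 14 CAR and PXR targets were higher and 1 lower.

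The genes whose log2 CPM followed a member most closely were sought over 80 libraries of liver, with values centred on each compound's controls, among 1983 probes. Abcc3 was followed by Ephx1 (Pearson r = 0.93), Gsta2 (0.93) and the aldehyde dehydrogenase Aldh1a1 (0.93). The closest gene was Bak1 for Abcc5 (0.81), Nit1 for Abcc2 (0.74), Ebna1bp2 for Abcc4 (0.67), Atp6v1f for Abcc1 (0.64) and Cd320 for Abcc6 (0.62). Between members the highest values were 0.57 for Abcc2 and Abcc5 and 0.54 for Abcc3 and Abcc4, and the lowest was -0.36 for Abcc1 and Abcc6. These points share the concentration steps and the scaling of their libraries, and the values describe the libraries only.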

How the data were processed

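The authors deposited raw read counts per probe and library, adjusted for attenuation. Per the submitters' processing notes, reads were aligned with Bowtie 1.3.1; its settings, the build and the exposure route were not given in the sources used here, nor whether a probe can tell close paralogs apart. Attenuation dilutes the oligonucleotides of very abundant transcripts, and the authors scaled those counts back up, which enlarges library totals. None of the 6 Abcc probes was scaled in this way, since their counts held steps of 1.

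Counts were tested with edgeR 4.0.16 in R 4.3.3 (robust quasi-likelihood fits, TMM factors, filterByExpr with a minimum count of 10). For each of 5 tissues and 2 compounds all 7 groups entered a single fit, which gave 10 fits and 60 comparisons with controls. Calls were made where p, adjusted over all probes of a comparison by Benjamini-Hochberg, was below 0.05. Tissues, and the compounds at 1 and 10 ppm, were compared in joint fits. Rat numbers in the titles tie the tissues of a rat together, and a fit with the rat as a block was an alternative there. CPM are counts scaled to a common TMM-adjusted library total, and log2 CPM for likeness used a prior count of 2. DESeq2 1.42.0, limma 3.58.1 (voom), other filters and scalings, and leaving out each rat were alternatives. The scripts were tested on simulated data.

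Reads carry no molecular identifiers, so PCR copies are counted and floors cover counting error only. The intervals of differences between compounds rest on the SE of the quasi-likelihood fits, which also takes in the spread between rats. Rats are separate animals. The members, gene lists and tests were chosen with earlier results of these data known. Named genes are all members, up to 3 called genes of smallest p per pathway list in liver and kidney, and the closest genes by correlation; 1 gene that this rule names is not reported here.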

Additional observations from a re-analysis of the deposited data

Results flagged for a closer look

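Among 160 groups of 4 to 10 libraries examined for a rat far from the rest of its group, 15 held one by Dixon's test, where chance gives about 1 in 20 (8). In liver these were Abcc3 in F403 at 100 ppm of 1,2-DCB (6.78 CPM, next 4.49), Abcc1 in F605 at 500 ppm (1.26 CPM, next 2.18), Abcc6 in F505 at 250 ppm (0.445 CPM, next 0.751), Abcc5 in F104 at 1 ppm (3.28 CPM, next 2.19) and Abcc4 in F302 at 30 ppm (0.241 CPM, next 0.084). With 1,4-DCB they were Abcc4 in the livers of F104 at 1 ppm (0.468 CPM, next 0.132) and F203 at 10 ppm (0.111 CPM, next 0.029). Elsewhere with 1,2-DCB at 500 ppm, Abcc1 stood out in the heart of F604 (66.6 CPM, next 52.6), Abcc2 in the kidney of F601 (7.03 CPM, next 2.996) and Abcc4 in the lung of F605 (5.16 CPM, next 2.49). Among 1,4-DCB controls, the kidney of F1 was high in Abcc1 (53.9 CPM, next 39.6) and Abcc4 (17.9 CPM, next 10.5). The control lung of F7 was low in Abcc1 (52.7 CPM, next 68.8) and Abcc5 (29.2 CPM, next 77.7), and that of F9 was high in Abcc6 (0.744 CPM, next 0.208).

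At 500 ppm of 1,2-DCB the change in liver differed from that in another tissue for 38.7% (heart) to 41.4% (ovary) of all probes. At 800 ppm of 1,4-DCB it did so for 11.6% (kidney) to 21.1% (ovary). Of 38 changes of a member, these tests singled out 24 (log2 change in liver minus that in the other tissue, edgeR quasi-likelihood test with adjusted p of 0.0241 or below). At 500 ppm of 1,2-DCB they were 2.48 (heart), 2.60 (kidney), 2.31 (lung) and 2.73 (ovary) for Abcc3. For Abcc4 they were 2.26 (heart), 1.24 (kidney), 2.61 (lung) and 3.21 (ovary). For Abcc1 they were 0.58 (heart), 0.97 (kidney), 0.96 (lung) and 0.73 (ovary), and for Abcc5 0.97 (kidney) and 0.83 (ovary). At 800 ppm of 1,4-DCB they were 2.26 (heart), 2.64 (kidney), 2.32 (lung) and 2.52 (ovary) for Abcc3. For Abcc4 they were 2.27 (heart), 2.25 (kidney), 2.55 (lung) and 3.11 (ovary), and for Abcc5 -1.08 (lung) and -1.02 (ovary). Between compounds the test singled out Abcc3 in heart at 1 ppm (1.59), which rests on the hearts of F101 and F102.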

How the results depend on the processing

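No called change with exposure turned its direction under the settings tried; changes that were not called did in places (Abcc2 in kidney at 500 ppm of 1,2-DCB stood at 0.32 and at -0.09 without 1 rat). Among the called differences between control tissues those of Abcc3 in liver minus lung (-2.96, against 0.56 with TMM factors) and of Abcc5 in heart minus ovary (-0.64, against 0.35) turned with library totals, and 3 that were not called with TMM factors were then called with the opposite sign: Abcc1 in heart minus ovary (-0.92, against 0.05) and lung minus ovary (-0.24, against 0.10), and Abcc4 in heart minus lung (-0.59, against 0.04). Of the results with a test, 2736 values under another setting kept their side of the threshold, 53 lost a call and 5 gained one. A filter at a mean of 20 CPM removed most members, so that 0 were called in liver (500 and 800 ppm), kidney and lung (500 ppm), and 24 of 60 differences between control tissues. At 500 ppm of 1,2-DCB the count in heart and in lung was 0 with library totals and 0 with the exposed group and its controls alone. Library totals gave 1 in lung at 800 ppm (Abcc1, -0.29, adjusted p = 0.0225). In ovary at 800 ppm it was 0 with no filter and 0 with the exposed group and its controls alone. Leaving out 1 rat gave 5 to 6 calls in liver at 500 ppm, 2 to 3 at 800 ppm, 0 to 1 in heart and lung at 500 ppm and in lung and ovary at 800 ppm. Between compounds 0 were called without the hearts of F101 and F102 and the kidney of F201.

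With the rat as a replicate block, Abcc5 in liver minus lung at 500 ppm was called (0.76, adjusted p = 0.047; 0.68 and 0.0823 without the block; 0.000947 to 0.125 over the settings); the block changed no other call among the changes in liver minus another tissue. Between control tissues it gained Abcc6 in heart minus lung (adjusted p = 0.0103, against 0.0925) and lost Abcc6 in heart minus ovary (0.0682, against 0.0309). With library totals Abcc5 in liver minus heart (1.19) and lung (1.27) at 500 ppm was called. The change of Abcc3 in liver at 10 ppm stayed between 1.02 and 1.09 under other settings and between 0.99 and 1.26 without 1 rat (adjusted p up to 0.0178). At 500 ppm these were 2.90 to 3.31 and 2.86 to 2.97. Abcc4 in kidney stayed between 1.34 and 1.50, and between 1.38 and 1.58 without 1 rat. The low counts of Abcc4 and Abcc6 in liver limit what could be seen there.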
